A study of Mus musculus with 32 samples.

Results

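LSK cells from mice at day 7 of tamoxifen were compared with LSK cells from mice at day 3, in animals whose blood system carried the activating Jak2V617F mutation and in which tamoxifen activates Cre to remove that allele. The labels do not say from which dose the days are counted. The 7 libraries were picked by their labels out of 32 in the series, 4 at day 7 and 3 at day 3, all of batch A and each from its own numbered animal. In every group the mutant allele had been switched on outside the body with mRNA for Dre, a recombinase, before the cells were given to lethally irradiated recipients, so vehicle mice carry the active mutation too. The 4 LSK libraries from vehicle mice of batch A give the level without tamoxifen, and 3 day 7 and 4 day 3 MEP libraries (megakaryocyte and erythroid progenitors) give the same interval in another sorted population. Libraries from vehicle mice of batch C and from mice given ruxolitinib entered the fits, where they share the estimate of the spread. No group that received tamoxifen without a deletable allele is described, and days of tamoxifen pass together with days after deletion, so the drug, the deletion and time cannot be told apart. The driver of Cre, the share of alleles deleted, the age of the mice and how many host cells survived irradiation are not stated in the labels. Nothing in the labels says whether the animals shared a litter or a day of sorting. The p-values therefore measure the spread between all libraries in a fit, and not between the 7 alone unless only those were fitted.

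LSK cells are defined as negative for lineage markers and positive for Sca1 and Kit, and hold the blood stem cells and multipotent progenitors. JAK2 is the kinase under the receptors for erythropoietin, thrombopoietin and several other cytokines, and it passes their signal on mainly through STAT5. The V617F form signals without cytokine and drives myeloproliferative neoplasms, in which red cells, platelets or granulocytes are overproduced. Comparing day 7 with day 3 asks how the stem and progenitor pool moves on after the first days without the mutant kinase. Marrow macrophages, which engulf dying cells and recycle iron, are not part of the LSK population but are known to stick to progenitors.

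The libraries held 16089135 to 18302675 counts at day 7 and 12423165 to 21289019 counts at day 3. Kit, the receptor that names the gate, had 795 to 1281 CPM (read counts scaled to a common library size) at day 7 and 508 to 916 at day 3, and Ly6a, which encodes Sca1, had 29.3 to 58.4 CPM at day 7 and 14.4 to 47.2 CPM at day 3. In MEP cells of the same days Ly6a had 0.187 to 1.33 CPM, far below the LSK libraries. The LSK vehicle libraries of batch A had 55.7 to 183 CPM of Ly6a, above all of day 3 and overlapping day 7 only in vehicle replicate 3. Their Kit level of 449 to 1369 CPM overlapped both days. Both days also held genes of differentiated cells, which are described with their values. On the first principal component of the 7 libraries, with 63.3% of the variation over 9694 genes, day 7 replicates 1, 2 and 3 lay at -26.7, -48.2 and -56.3 and day 7 replicate 4 at 14.6. The 3 day 3 libraries lay at 36.7, 36.7 and 43.2. Over these genes day 7 replicate 4 correlated with day 3 replicates 1 and 2 at 0.951 and 0.953 and with its own group at 0.875 to 0.926. Day 3 replicate 3 stood apart on the second component (-40.8, against 16 and 12.6 for the other day 3 libraries) and had the highest level of macrophage genes. Its Xist level was 17.3 CPM, against 0.917 to 2.86 in the other 6 libraries, and its Ddx3y level was the lowest, 56.6 against 85.8 to 127 CPM. Named genes whose call changed without either library are given with the results.

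Jak2 itself had 14.3, 18.2, 15.4 and 16.3 CPM at day 7, against 16.7, 15.4 and 18.1 CPM at day 3. The groups overlapped, and the fitted log2 difference was -0.06 ± 0.24 (SE), with an adjusted p of 0.996 in edgeR's quasi-likelihood test. Vehicle libraries had 17.6 to 31.5 CPM. The counts cover the whole gene and the deleted part is not stated, so this level does not test the deletion.

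Across all genes, 2 of 26930 passed edgeR's quasi-likelihood test at an adjusted p under 0.05 (0.00743%), 1 higher and 1 lower at day 7 (0.00371% each). The gene that rose was mt-Rnr1 (mitochondrial genome, 70 to 1024, plus strand), the small ribosomal RNA of the mitochondrion. It had 174, 334, 239.6 and 239.5 CPM at day 7, against 46.3, 38.4 and 29.6 CPM at day 3, with 76.3 to 122 CPM in vehicle libraries. Day 7 thus lay above both, and day 3 below both, without overlap. Its log2 change was 2.69 ± 0.30 (SE), with an adjusted p of 0.00113 in edgeR's quasi-likelihood test and of 2.47e-13 to 0.0469 over 16 alternative settings, 16 of which it passed. The gene that fell was Il18bp (chromosome 7, 102014885 to 102018690, minus strand), which encodes the secreted protein that binds and neutralises interleukin 18. It had 8.32, 7.31, 5.23 and 4.96 CPM at day 7, against 45.7, 25.1 and 69 CPM at day 3, and 9.05 to 24.3 CPM under vehicle. All 4 day 7 libraries stood below all 3 day 3 libraries. Its log2 change was -2.85 ± 0.36, with an adjusted p of 0.00404 in the same edgeR test and of 4.76e-09 to 0.0689 over the alternatives. The call was lost without day 3 replicate 3, where the log2 change was -2.45 and the adjusted p 0.0689.

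At an unadjusted p under 0.05 the test gave 2135 genes (7.93%), 457 higher (1.7%) and 1678 lower (6.23%) at day 7. All 4 day 7 libraries lay above all 3 day 3 libraries for 1230 genes (4.57%) and below them for 1977 (7.34%). The median log2 difference was -0.09 over all genes tested and 0.09 over the 9805 expressed ones, those with a mean of at least 10 CPM. How many genes were called depended on the fit. The 7 tamoxifen libraries alone gave 289 of 24154 (1.2%), 35 higher and 254 lower. Expressed genes alone gave 252 (2.57%), 30 higher and 222 lower. Without day 7 replicate 4 there were 797 of 26984 (2.95%), 20 higher and 777 lower. That library was the one of its group nearest to day 3, so leaving it out widens the difference between the days. Genes said to pass without it gain no independent support from that. Of the 289 and the 252 genes, 129 were shared, which is 44.6% and 51.2% of them. The log2 difference was lower in transcripts of higher GC content (Spearman rho -0.26 across 8854 expressed genes, which are not independent), and with an offset for GC content 558 of 8855 expressed genes were called, 289 higher and 269 lower, beside 30 higher and 222 lower of 9805 expressed genes without it. The libraries differed in this. The rho of a library's deviation from the LSK mean with GC was -0.007, -0.49, -0.27 and -0.12 in day 7 replicates 1 to 4. At day 3 it was -0.02 to 0.08.

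The other genes with the smallest p in each direction did not pass when all 16 LSK libraries were fitted, and were taken among genes whose groups do not overlap. On the higher side, S100a8, a subunit of the neutrophil protein calprotectin, had 60.8, 61.6, 21.3 and 39.6 CPM at day 7, against 8.75, 5.07 and 9.24 CPM at day 3, with 0.502 to 1.93 CPM under vehicle. Siglecg, an inhibitory receptor for sialic acid, had 44.7, 34.8, 45.4 and 36.2 CPM at day 7, against 17, 21.7 and 14.9 CPM at day 3. P2ry10, a receptor of lymphoid cells, had 3.19, 4.77, 5.18 and 4.85 CPM at day 7, against 0.861, 0.445 and 0.918 CPM at day 3. Under vehicle Siglecg had 19.4 to 31.1 CPM, which lay below day 7 and overlapped day 3. P2ry10 had 4.35 to 8.11 CPM under vehicle, which overlapped day 7 and lay above day 3. Tmem50b, a membrane protein gene, had 89, 63.9, 72.6 and 62.7 CPM at day 7, against 38.4, 37.4 and 26.8 CPM at day 3. Mir155, the hairpin gene of a microRNA active in immune cells, had 4.6, 10.1, 5.88 and 4.18 CPM at day 7, against 2.13, 0.845 and 0.673 CPM at day 3. These counts come from long RNA libraries and do not measure the mature microRNA. The adjusted p of these 5 genes in edgeR's test lay between 0.0756 and 0.109.

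On the lower side stood Epor (chromosome 9, 21958897 to 21963506, minus strand), the erythropoietin receptor that signals through JAK2. It had 26.9, 9.44, 5.56 and 23.8 CPM at day 7, against 132, 78.1 and 116 CPM at day 3, and 42 to 90.2 CPM under vehicle, a log2 difference of -2.73 ± 0.44 with an adjusted p of 0.0646 in edgeR's quasi-likelihood test. Day 7 replicates 1 and 4 were the higher ones of their group. Cyth3, which activates small GTPases of the ARF family, had 15.4, 6.57, 12.5 and 18 CPM at day 7, against 124, 89.5 and 74.5 CPM at day 3. Epdr1, a secreted ependymin-related protein, had 8.16, 8.28, 7.66 and 29.6 CPM at day 7, against 137, 79.2 and 79.3 CPM at day 3, and its log2 difference of -2.88 ± 0.49 was -3.61 without day 7 replicate 4. Crip2, a LIM domain protein, had 7.06, 4.72, 5.94 and 6.37 CPM at day 7, against 63.9, 26.4 and 59.8 CPM at day 3. Fgr, a SRC family kinase of myeloid cells, had 13.9, 10, 10.8 and 9.5 CPM at day 7, against 46.4, 33.1 and 83.6 CPM at day 3. The adjusted p of Cyth3, Epdr1, Crip2 and Fgr lay between 0.0646 and 0.0756 in edgeR's test, and each of the 4 passed in 8 of 16 alternatives. Without day 7 replicate 4 all 10 genes named for their p on either side passed. They were picked by p from these same libraries, so this is not a separate test of them.

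**Figure D1:**
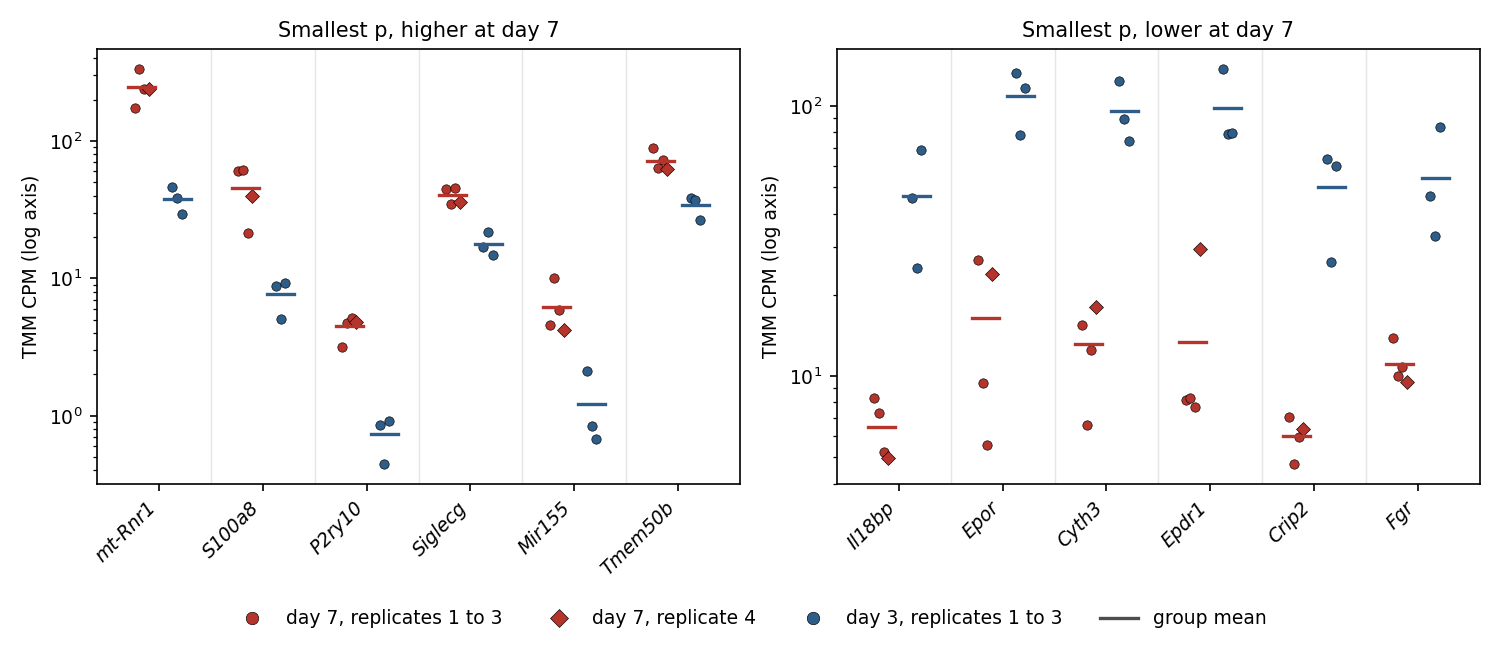
TMM-normalised CPM (log axis) of the 12 genes with the smallest p in each direction, 6 higher at day 7 on the left and 6 lower at day 7 on the right. Points are libraries, 4 at day 7 and 3 at day 3, diamonds are day 7 replicate 4 and bars are group means. Genes were taken only where the groups do not overlap, and mt-Rnr1 and Il18bp are the 2 that passed.

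Gene lists for cell types and pathways were then read against these shares. Macrophage genes had the lowest median log2 difference of the 15 lists described (-3.33), followed by immediate early genes (-0.96), erythroid genes (-0.90) and genes of heme and iron (-0.50). Late neutrophil genes (0.80), granulocyte and monocyte progenitor genes (0.74) and MHC class II genes (0.65) had the highest. Stem cell genes had 0.14, beside -0.09 over all genes tested. Apart from mt-Rnr1, no member of these lists passed when all 16 LSK libraries were fitted. Without day 7 replicate 4 the named members that passed were Sirpa, Cd5l, Lgmn, Apoe, Slc40a1, Hmox1, C1qa and C1qb of the macrophage genes, Epor, Klf1, Rhag, Aqp1, Blvrb and Alas1 of the erythroid and heme genes, S100a8, Elane, Ly6c2, H2-Eb1, Ctss and Tpsb2, and among the rest Mycn, Eng, Rab27b, F2r, Ccnd3, Cmpk2, Junb, Ier2 and Etv5.

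**Figure D2:**
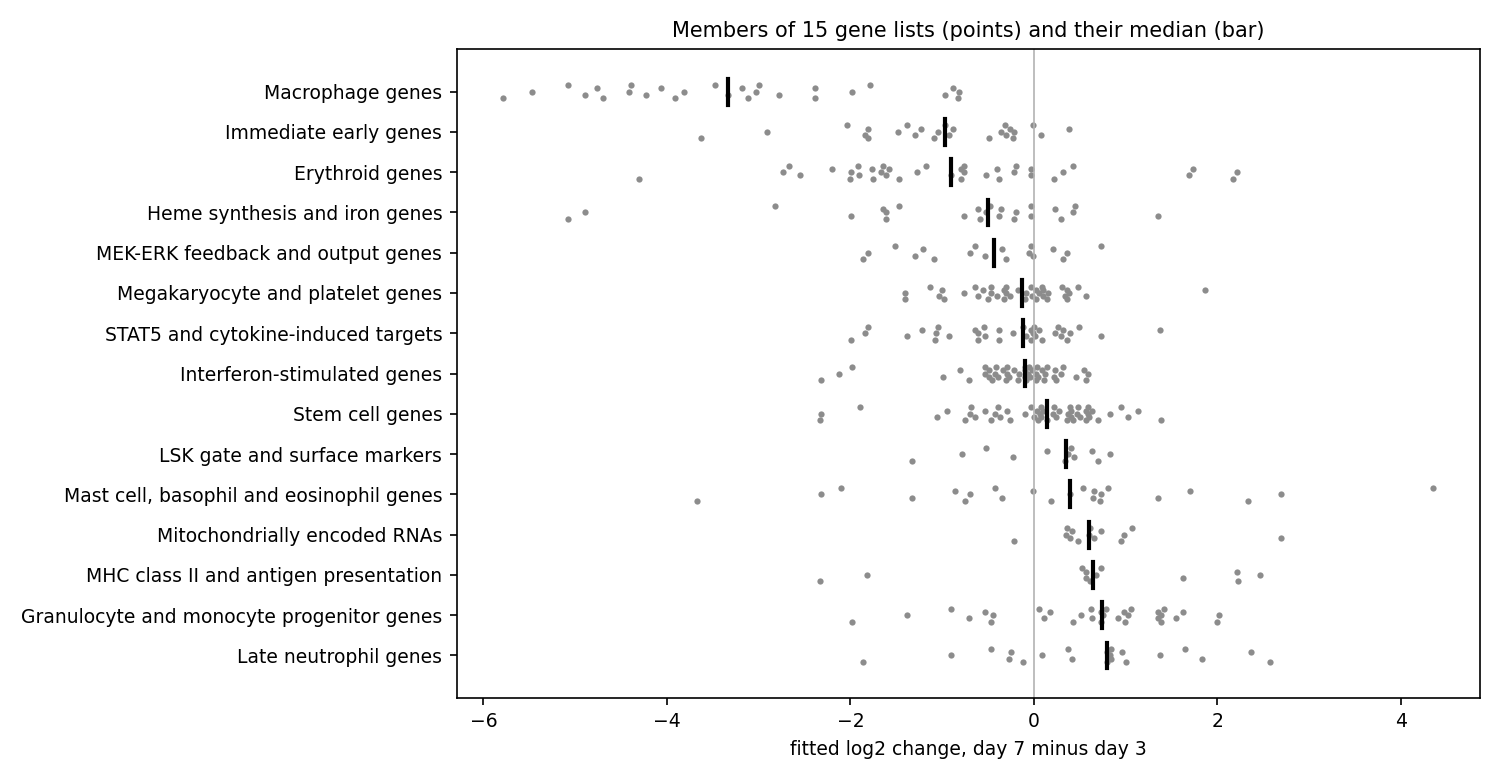
Fitted log2 change of day 7 minus day 3 (horizontal axis) for the tested members of 15 gene lists, 1 point a gene, with the median of each list as a bar. The macrophage list lies wholly below 0 with a median of -3.33, while late neutrophil genes have a median of 0.80.

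Macrophage genes were at far lower levels at day 7. Of 27 members, all tested, 25 had every day 7 library below every day 3 library (7.34% of all genes did) and 23 had an unadjusted p under 0.05 (6.23% of all genes on that side). In the fit of the 7 libraries alone 21 of 27 were called lower (1.05% of all genes there), among expressed genes alone 11 of 22 (2.26%), and without day 7 replicate 4 12 members (2.88%). The summed CPM of the list was 1355 to 2273 at day 7 and 6414 to 34650.3 at day 3, where replicates 1 and 2 gave 10737 and 6414 and replicate 3 gave the highest value. Under vehicle it was 1190.1 to 12215, highest in replicate 3. Without day 3 replicate 3 no member was called, as mt-Rnr1 alone passed then. In a bulk library fewer macrophages and less RNA per macrophage cannot be told apart.

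Among the recognition molecules, C1qb, a chain of the complement component that tags dying cells (chromosome 4, 136880129 to 136886187, minus strand), had 47.1, 17.2, 13.4 and 16.1 CPM at day 7, against 469.7, 236 and 1123 CPM at day 3. Its log2 difference was -4.70 ± 0.99 with an adjusted p of 0.0857 in edgeR's test. C1qa and C1qc, which encode the other chains of that complex, differed by -4.41 ± 0.97 and -4.39 ± 1.04. Cd5l, a secreted scavenger protein of tissue macrophages (chromosome 3, 87357881 to 87371073, plus strand), had 15.8, 9.44, 3.51 and 10.8 CPM at day 7, against 329.8, 173 and 816 CPM at day 3, a log2 difference of -5.47 ± 1.05 with an adjusted p of 0.0756 in edgeR's test. Vcam1, an adhesion molecule of macrophages in erythroblastic islands, had 132, 54.6, 53.9 and 43.7 CPM at day 7, against 854, 470.4 and 4469 CPM at day 3. In each of these genes day 3 replicate 3 was highest and the 4 day 7 libraries, replicate 4 included, lay below all of day 3. Without it the log2 difference of C1qb was -3.91, that of C1qa -3.52, that of C1qc -3.46, that of Cd5l -4.66 and that of Vcam1 -3.22, beside -4.76 with it. Vehicle replicate 3 had 552 CPM of C1qb, while the other 3 vehicle libraries had 22 to 24.8.

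Iron and lipid handling showed the same order of libraries. Hmox1, the enzyme that breaks heme down, had 72.2, 39.4, 24.5 and 23.8 CPM at day 7, against 733, 404 and 2929 CPM at day 3. Slc40a1, the iron exporter ferroportin, had 86.7, 42.5, 19.8 and 36.7 CPM at day 7, against 742, 478 and 2918 CPM at day 3. Spic, the transcription factor of iron-recycling macrophages, had 19.5, 18.9, 8.63 and 12.9 CPM at day 7, against 77.5, 61.1 and 361 CPM at day 3. All 3 separated the days without overlap, with log2 differences of -5.08 ± 1.11, -4.89 ± 1.03 and -3.47 ± 0.85, and of -3.83, -3.71 and -2.20 without day 3 replicate 3. Apoe, the lipid carrier, had 11.7, 11.9, 5.45 and 126 CPM at day 7, against 1249.6, 952 and 4212 CPM at day 3, and here day 7 replicate 4 stood between the days. Its log2 difference was -5.78 ± 1.18, with -7.79 without that library and -4.79 without day 3 replicate 3. Under vehicle Apoe had 14.7, 452, 981 and 194 CPM. Batch C minus batch A was 3.55 and 0.525 for the vehicle libraries of animal numbers 12 and 18, in log2 of CPM plus 1. The lysosomal protease Lgmn and the inhibitory receptor Sirpa, the members with the smallest p beside Cd5l, had 10.5 to 17.4 and 9.95 to 22.9 CPM at day 7, against 89.8 to 507 and 82.6 to 229 CPM at day 3. The log2 difference of Lgmn was -4.22 ± 0.82, and -3.15 without day 3 replicate 3. Emr1, which encodes the macrophage marker F4/80 and is now named Adgre1, had 4.59 to 17.9 CPM at day 7 and 43.2 to 150.1 at day 3, with a log2 difference of -3.0 ± 0.93, and -2.41 without day 3 replicate 3. Marco, Timd4, Trf and Gpnmb were the members with an unadjusted p above 0.05, and had means of 1.3 to 7.06 CPM at day 7 and 2.55 to 12.5 CPM at day 3.

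The windows before their start sites (250 bases before to 50 after the RefSeq start, build GRCm38.p6) were searched on both strands for GAGGAA, the core bound by PU.1, a transcription factor that macrophages and granulocytes depend on. It was present in 9 of the 17 members with a window in the table, and in 28.3% of 27025 windows of all genes. The windows of C1qb (chr4:136886151-136886450, minus strand) and Cd5l (chr3:87357631-87357930, plus strand) are shown 5′ to 3′ on the strand of the gene, with the match in capitals, because these genes separated the days without overlap. The match begins at -30 in C1qb and, on the other strand, at -66 in Cd5l, counted from the start site. A match describes letters and not a bound site, and none overlapped a match of the GATA motif given with Epor.
C1qb: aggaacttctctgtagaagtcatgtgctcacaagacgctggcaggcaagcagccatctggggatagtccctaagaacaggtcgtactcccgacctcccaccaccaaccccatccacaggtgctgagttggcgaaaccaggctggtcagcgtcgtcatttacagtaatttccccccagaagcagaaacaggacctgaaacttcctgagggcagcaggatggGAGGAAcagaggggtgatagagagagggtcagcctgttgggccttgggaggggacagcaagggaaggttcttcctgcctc
Cd5l: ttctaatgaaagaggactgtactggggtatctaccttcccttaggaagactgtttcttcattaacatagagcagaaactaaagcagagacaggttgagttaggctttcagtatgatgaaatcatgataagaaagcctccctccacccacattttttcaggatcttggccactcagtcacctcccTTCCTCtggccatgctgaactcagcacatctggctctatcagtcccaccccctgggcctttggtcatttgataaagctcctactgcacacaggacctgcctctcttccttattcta

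Erythroid genes also had lower levels at day 7. Of 37 members tested, of 46 listed, 20 had all day 7 libraries below all day 3 libraries and 3 above them (7.34% and 4.57% of all genes), and 22 had an unadjusted p under 0.05 on the lower side and 1 on the higher (6.23% and 1.7% of all genes). In the fit of the 7 libraries alone 12 were called lower (1.05% of all genes there), among expressed genes alone 13 of 34 (2.26%), and without day 7 replicate 4 10 (2.88%). The summed CPM was 2343 to 3055 at day 7 and 4255 to 8314 at day 3. Vehicle libraries, with 2426 to 5673, spanned the gap between the days.

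Klf1, the master transcription factor of red cell genes, had 2.41, 1.57, 2.21 and 23.7 CPM at day 7, against 209.8, 146 and 88.5 CPM at day 3. Its log2 difference was -4.31 ± 0.95, with an adjusted p of 0.0863 in edgeR's test. Day 7 replicate 4 stood well above its group yet below every day 3 library, and without it the log2 change was -6.16 and passed. Under vehicle Klf1 had 2.46, 53.6, 51.5 and 58.5 CPM, so vehicle replicate 1 was low as well. Batch C minus batch A was 2.97 and 0.806 for animal numbers 12 and 18, in log2 of CPM plus 1. Gata1, the factor that opens both the erythroid and the megakaryocyte programme, had 131, 126, 129 and 123 CPM at day 7, against 308, 184 and 155 CPM at day 3, a log2 difference of -0.76 ± 0.25. Of the membrane genes, Rhag, part of the Rh complex, had 13.1, 14.3, 22.2 and 9.55 CPM at day 7, against 105, 58.6 and 94.8 CPM at day 3 (-2.54 ± 0.48), and Aqp1, the water channel, had 74, 58.1, 69.4 and 49.1 CPM at day 7, against 265, 174 and 150.3 CPM at day 3 (-1.65 ± 0.32). Neither group overlapped the other in these genes. Their adjusted p was 0.0756 and 0.0756 in edgeR's test, and both passed among expressed genes alone.

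Genes around heme lay on both sides. Blvrb, a biliverdin reductase, had 71.7, 37.3, 77.9 and 38.8 CPM at day 7, against 275, 179 and 225 CPM at day 3. Alas1, the housekeeping form of the first enzyme, lay on the other side, with 683, 309, 599.6 and 406 CPM at day 7, against 168, 238 and 179 CPM at day 3 and a log2 difference of 1.36 ± 0.34. Over the 24 genes of heme synthesis and iron the median was -0.50, with 9 members below and 4 above without overlap (7.34% and 4.57% of all genes). Globin genes did not pass. Hbb-b1, an adult beta globin, had 118, 82, 30.8 and 78 CPM at day 7, against 29.6, 6.89 and 13.3 CPM at day 3, and Hba-a1, an alpha globin, had 95.8, 50, 22.8 and 63 CPM at day 7, against 32.5, 7.47 and 13.8 CPM at day 3. Hbb-b1 was higher in every day 7 library and Hba-a1 overlapped. Vehicle replicate 3 had 807 and 566 CPM of Hbb-b1 and Hba-a1. The globin genes are near-identical copies and can hold each other's reads.

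The window of Epor (chr9:21963527-21963826, minus strand) is shown as that of the erythroid gene with the smallest p. Its capitals mark the only match, on either strand, of AGATAA, the core bound by GATA1, which begins at -54 from the RefSeq start site on the other strand. The motif was present in 10 of the 31 erythroid members with a window and in 11.4% of all 27025 windows. No match of GAGGAA overlapped it.
Epor: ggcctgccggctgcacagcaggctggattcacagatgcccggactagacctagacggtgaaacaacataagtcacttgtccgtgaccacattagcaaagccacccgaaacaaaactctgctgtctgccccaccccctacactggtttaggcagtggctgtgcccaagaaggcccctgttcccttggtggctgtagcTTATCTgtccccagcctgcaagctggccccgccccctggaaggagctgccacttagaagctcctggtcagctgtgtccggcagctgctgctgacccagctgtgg

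**Figure D3:**
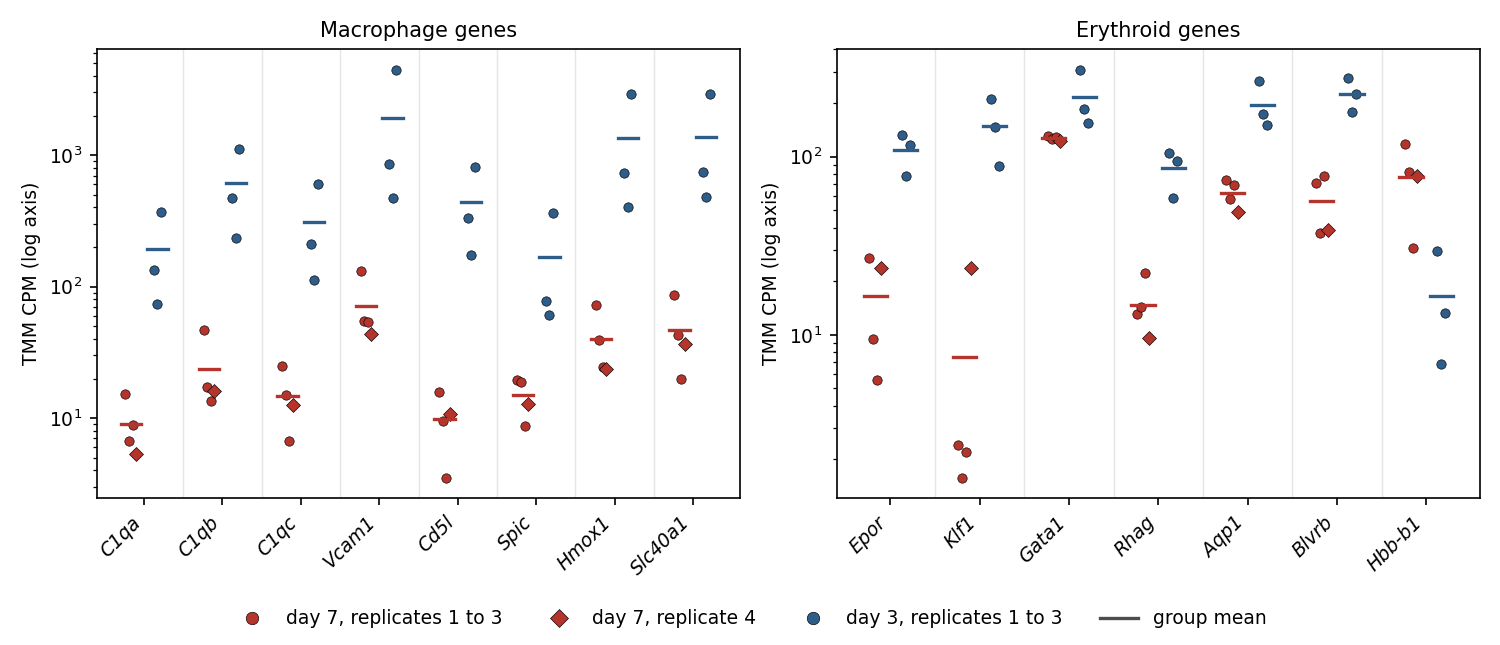
TMM-normalised CPM (log axis) of 8 macrophage genes (left) and 7 erythroid genes (right). Points are libraries, 4 at day 7 and 3 at day 3, diamonds are day 7 replicate 4 and bars are group means. In the macrophage genes replicate 4 lies with its group, whereas in Klf1 it lies nearer to day 3, and Hbb-b1 is higher at day 7.

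Granulocyte and monocyte progenitor genes lay on the other side. Of 32 members tested, of 33 listed, 14 had every day 7 library above every day 3 library and none below (4.57% and 7.34% of all genes), and 12 had an unadjusted p under 0.05 on the higher side (1.7% of all genes) and 3 on the lower. Called higher were 2 in the fit of the 7 libraries alone (0.145% of all genes there), 2 of 23 among expressed genes alone (0.306%) and 3 without day 7 replicate 4 (0.0741%). The summed CPM of the list was 12225 to 22168 at day 7, 7037 to 10674 at day 3 and 4104 to 9925 under vehicle.

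Among the granule proteins, Mpo, the peroxidase of neutrophil granules, had 10407, 5285, 9785 and 6953 CPM at day 7, against 2165, 4921 and 2232 CPM at day 3. Elane, the elastase stored beside it, had 2302, 1041, 1812 and 1145 CPM at day 7, against 182, 623 and 378 CPM at day 3, with 162 to 463 CPM under vehicle. The groups did not overlap in either gene, and day 3 replicate 2 was the highest at day 3 in both. The log2 differences were 1.38 ± 0.55 for Mpo and 2.0 ± 0.51 for Elane, and their adjusted p in the edgeR test was 0.442 and 0.136. Ly6c2, a surface protein of monocytes and their precursors, had 129, 63.7, 86.6 and 42.5 CPM at day 7, against 13.1, 31.9 and 14.7 CPM at day 3. Prtn3, another granule protease, averaged 776 CPM at day 7 and 290.3 CPM at day 3, and Ms4a3, a marker of granulocyte and monocyte progenitors, 331 CPM at day 7 and 129 CPM at day 3. Csf1r, the receptor for the macrophage growth factor, and Irf8, a factor of the monocyte and dendritic cell lineages, were on the lower side, with means of 48.7 and 54.7 CPM at day 7 and 192 and 143 CPM at day 3. Csf1r is also on the macrophage list. It had 80.3, 33.3, 46.1 and 34.9 CPM at day 7, against 101, 76.4 and 398 CPM at day 3, the groups overlapping, and its log2 difference of -1.98 ± 0.60 was -0.86 without day 3 replicate 3.

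Late neutrophil genes were mixed, with 6 of 21 members above and 1 below without overlap (4.57% and 7.34% of all genes), and 5 higher and 2 lower at an unadjusted p under 0.05 (1.7% and 6.23%). S100a9, the partner of S100a8 in calprotectin, had 42.3, 36.8, 9.98 and 30.5 CPM at day 7, against 6.89, 5.07 and 5.45 CPM at day 3, and 0.391 to 3.92 CPM under vehicle. Camp, an antimicrobial peptide of secondary granules, had 9.52, 4.16, 2.86 and 7.88 CPM at day 7, against 2.08, 1.2 and 1.84 CPM at day 3. Anxa1, an annexin that dampens inflammation, had 268, 241, 269 and 212 CPM at day 7, against 155, 182 and 89.5 CPM at day 3. The summed CPM of the list overlapped, 878 to 1435 at day 7 and 899 to 1455 at day 3. The log2 difference of S100a8 was 2.58 ± 0.48 with an adjusted p of 0.0756 in edgeR's test, that of S100a9 2.36 ± 0.72 with 0.234 in the same edgeR test.

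GAGGAA was present in 14 of the 28 granulocyte and monocyte progenitor members with a window, beside 9 of 17 for the macrophage list. The windows of Elane (chr10:79886062-79886361, plus strand) and S100a8 (chr3:90668821-90669120, plus strand) are shown for this contrast. The match begins at -85 in Elane and, on the other strand, at -170 and -36 in S100a8.
Elane: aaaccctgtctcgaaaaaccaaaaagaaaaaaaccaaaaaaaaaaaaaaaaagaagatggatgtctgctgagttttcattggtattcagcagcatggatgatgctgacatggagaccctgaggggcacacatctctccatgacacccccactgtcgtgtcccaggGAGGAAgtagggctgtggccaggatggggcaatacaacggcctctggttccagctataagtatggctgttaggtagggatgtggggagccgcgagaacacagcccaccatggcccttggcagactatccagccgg
S100a8: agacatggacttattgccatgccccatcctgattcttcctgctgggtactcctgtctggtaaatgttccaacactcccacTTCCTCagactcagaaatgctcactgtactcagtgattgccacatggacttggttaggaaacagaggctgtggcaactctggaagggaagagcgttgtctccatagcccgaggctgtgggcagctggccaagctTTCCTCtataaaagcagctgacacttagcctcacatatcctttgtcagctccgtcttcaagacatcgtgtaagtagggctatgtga

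Genes that present antigen through MHC class II lay on both sides. Of 12, all tested, 6 had every day 7 library above every day 3 library and 2 every one below (4.57% and 7.34% of all genes). In the fit of the 7 libraries alone 1 was called higher and 2 lower (0.145% and 1.05% of all genes there), and among expressed genes alone 1 lower (2.26%). The summed CPM was 1543 to 2144 at day 7 and 648 to 1141 at day 3. H2-Aa and H2-Eb1, chains of the class II molecules, lay above day 3 throughout. H2-Aa had 200.3, 195, 299 and 163 CPM at day 7, against 86.1, 42.5 and 8.45 CPM at day 3. H2-Eb1 had 119, 118, 187 and 111 CPM at day 7, against 50.3, 24.3 and 11.6 CPM at day 3. Cd74, their chaperone, had 586, 471, 753 and 423 CPM at day 7, against 200.1, 80.9 and 21.5 CPM at day 3. Day 3 replicate 3, the library with the highest macrophage genes, was the lowest in all 3 genes. Their log2 differences were 2.23 ± 0.62, 2.22 ± 0.54 and 2.47 ± 0.67, and their adjusted p was 0.118 to 0.179 in edgeR's test. Vehicle libraries had 246 to 1829 CPM of Cd74. Ctss, a protease that trims Cd74 and is abundant in macrophages, lay on the other side, with 63.4, 29.4, 41.1 and 25.1 CPM at day 7, against 153, 90.5 and 358 CPM at day 3 (log2 -2.33 ± 0.53, and -1.62 without day 3 replicate 3), as did the costimulatory gene Cd86, with means of 18 CPM at day 7 and 63.3 CPM at day 3.

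Mast cell proteases had higher values at day 7. Tpsb2, a tryptase of mast cells, had 187, 55.8, 114 and 57 CPM at day 7, against 7.71, 4.8 and 2.57 CPM at day 3, a log2 difference of 4.35 ± 1.07 with an adjusted p of 0.121 in edgeR's test. Cma1, a mast cell chymase, had 245, 67, 122 and 64.9 CPM at day 7, against 10.3, 16.8 and 30.9 CPM at day 3, a log2 difference of 2.69 ± 0.91. Both were above day 3 in all 4 day 7 libraries. Ccr3, the eotaxin receptor of eosinophils, had 13.4, 7.08, 3.18 and 5.69 CPM at day 7, against 86.7, 40.5 and 154 CPM at day 3, below day 3 throughout. Alox15, a lipoxygenase of eosinophils, had 2.13 to 5.39 CPM at day 7 and 5.03 to 17.1 at day 3, and overlapped. So did Mcpt8, a basophil protease, with means of 93.6 CPM at day 7 and 169 at day 3, and Prg2, an eosinophil granule protein, with 182 CPM at day 7 and 126 at day 3. Of 23 members tested, 3 lay above and 2 below without overlap (4.57% and 7.34% of all genes), and the summed CPM was 849 to 1955 at day 7, 731 to 3018 at day 3 and 821 to 6837 under vehicle.

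**Figure D4:**
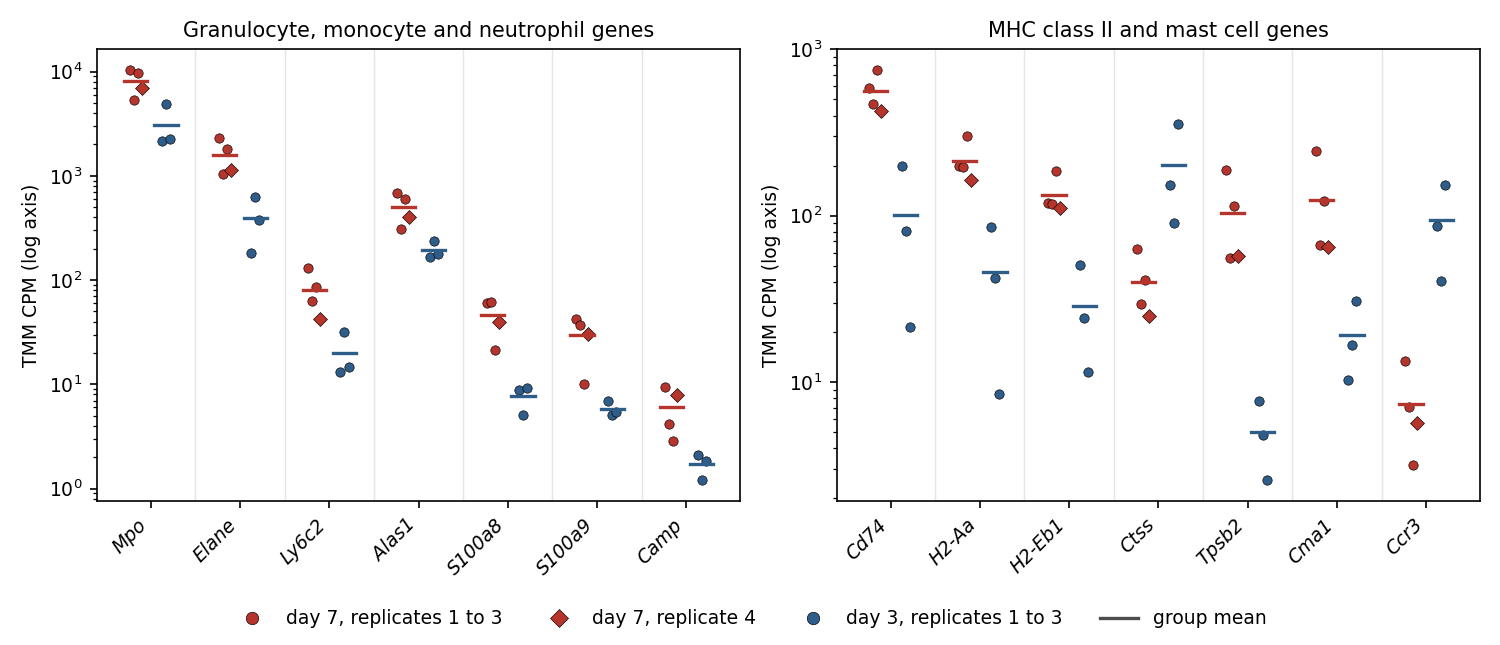
TMM-normalised CPM (log axis) of 7 granulocyte, monocyte and neutrophil genes (left) and of 7 MHC class II and mast cell list genes (right). Points are libraries, 4 at day 7 and 3 at day 3, diamonds are day 7 replicate 4 and bars are group means. Every gene separates the days, Ctss and Ccr3 downwards and the others upwards.

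Stem cell genes gave no call. Of 51 members, all tested, 6 lay above and 4 below without overlap (4.57% and 7.34% of all genes did), and none was called in the fit of the 7 libraries alone or among expressed genes alone. Their summed CPM was 5724 to 7988 at day 7 and 3729 to 5608 at day 3. Among the transcription factors Mecom averaged 78.7 CPM at day 7 and 53.1 CPM at day 3 and Hlf 77.5 CPM at day 7 and 40.1 CPM at day 3, with overlapping groups. Gfi1, a repressor needed by stem cells and granulocytes, had 6.85, 3.42, 8.04 and 3.34 CPM at day 7, against 1.77, 3.07 and 1.35 CPM at day 3, and Mycn, a MYC family factor, had 8.21, 10.3, 5.5 and 30 CPM at day 7, against 34.8, 60.5 and 55.8 CPM at day 3. Gimap1, a GTPase of lymphoid cells, had 2.35, 5.74, 1.46 and 11 CPM at day 7, against 27.1, 38.4 and 11.4 CPM at day 3. Sult1a1, a sulfotransferase, had 1.24 to 2.62 CPM at day 7 and 3.54 to 18.9 at day 3, a log2 difference of -2.33 ± 0.69, and of -1.04 without day 3 replicate 3. In Mycn and Gimap1 day 7 replicate 4 was the highest of its group, and without it the log2 change of Mycn was -2.65 in place of -1.90 ± 0.57 and passed. That of Gimap1 was -3.0 without it, and -2.32 ± 0.79 with it. Cd34 and Cd27, surface markers of progenitors, had 609.9 to 924 and 123 to 188 CPM at day 7, against 198 to 625 and 48.2 to 119 CPM at day 3. Eng and Cd47, the gate and surface markers with the smallest p, had 16.9 to 134 and 119 to 221 CPM at day 7, against 116 to 203 and 166 to 304 CPM at day 3. Their overlap came from day 7 replicate 4 in Eng, whose log2 difference of -1.32 ± 0.59 was -2.15 without that library and passed. That of Cd47 was -0.78 ± 0.42.

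Megakaryocyte and platelet genes gave a median of -0.13, with 1 of 40 members above and 5 below without overlap (4.57% and 7.34% of all genes). Itgb3, the beta chain of the platelet fibrinogen receptor, had 15.9, 28.1, 12 and 20.4 CPM at day 7, against 34.8, 37.9 and 41.9 CPM at day 3. Rab27b, a GTPase of platelet granule release, had 7.9, 13.3, 5.18 and 30.8 CPM at day 7, against 29.5, 36.9 and 47.7 CPM at day 3, and its log2 difference of -1.41 ± 0.42 was -2.11 without day 7 replicate 4 and passed. F2r, the thrombin receptor, had 45.2, 35.4, 17.6 and 185 CPM at day 7 and 199, 175 and 186 CPM at day 3, so that replicate 4 alone of day 7 stood at the day 3 level. The log2 difference of F2r was -1.40 ± 0.52, and -2.51 without that library, when it passed. Pf4 and Plek, both platelet proteins, overlapped. Pf4 averaged 207 CPM at day 7 and 185 CPM at day 3, and Plek averaged 206 CPM at day 7 and 209 CPM at day 3.

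Targets of STAT5 and of cytokine receptors gave no call when all 16 LSK libraries were fitted. Of 35 tested members, 2 were called lower in the fit of the 7 libraries alone (1.05% of all genes there), 2 without day 7 replicate 4 (2.88%) and none among expressed genes alone, and 7 had an unadjusted p under 0.05, all lower (6.23%). The 2 called in the fit of the 7 libraries were Fos and Egr1. Both are also on the list of immediate early genes, and Egr1 on that of MEK and ERK outputs, so these lists share calls. Cish, the feedback inhibitor that STAT5 induces most directly, had 9.1, 11.5, 4.26 and 5.17 CPM at day 7, against 3.85, 5.87 and 7.41 CPM at day 3, with 16.1 to 34.8 CPM under vehicle. Socs2, another inhibitor of the pathway, had 28.8, 22, 12.3 and 20.5 CPM at day 7, against 40.7, 23.7 and 30.9 CPM at day 3, and 50.7 to 77.9 under vehicle. The days overlapped in both genes. Osm, the cytokine oncostatin M, had 16.1, 14.6, 18.3 and 17.4 CPM at day 7, against 25.8, 29.4 and 17.2 CPM at day 3. Pim1, Bcl2l1, Id1, Socs3, Myc, Ccnd2 and Podxl had log2 differences between -1.99 (Socs3) and 0.29 (Id1), and none of the 10 genes passed in edgeR's test, with adjusted p of 0.554 to 1. Over 35 tested members of the wider list the median was -0.12, with 4 below and none above without overlap (7.34% and 4.57% of all genes). Apart from Fos and Egr1, those with the smallest p were Gfi1b, a repressor of the erythroid and megakaryocyte lineages, and Ccnd3, a cyclin. Gfi1b had 117, 143, 163 and 119 CPM at day 7, against 283, 170.1 and 165 CPM at day 3. Ccnd3 had 24.5, 25.4, 18 and 106 CPM at day 7, against 115, 108 and 81.8 CPM at day 3, replicate 4 being at the day 3 level, and its log2 difference of -1.22 ± 0.51 was -2.16 without that library and passed.

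Immediate early genes, which growth factor and stress signals switch on within minutes, had lower levels at day 7 in many members. Of 25 tested, 10 lay below and 1 above without overlap (7.34% and 4.57% of all genes), 11 had an unadjusted p under 0.05, all lower (6.23%), and 5 were called lower in the fit of the 7 libraries alone (1.05%). The summed CPM was 669 to 1059 at day 7 and 1386 to 1527 at day 3. Fos and Egr1, transcription factors of this early wave, had 40.3 to 66.9 and 1.41 to 3.56 CPM at day 7, against 127 to 224 and 4.85 to 10.7 CPM at day 3. Junb, an AP1 subunit, had 1.94, 0.602, 0.756 and 32.4 CPM at day 7, against 89.9, 129 and 110.5 CPM at day 3. Ier2, a nuclear protein gene of the same class, had 4.24, 3.98, 3.13 and 48.7 CPM at day 7, against 108, 146 and 86 CPM at day 3. In both, day 7 replicate 4 stood far above the other day 7 libraries and below all of day 3. The log2 differences were -3.63 ± 1.01 for Junb and -2.91 ± 0.86 for Ier2. Without day 7 replicate 4 they were -6.65 and -4.90 and passed. Under vehicle Junb had 9.71, 104, 84.2 and 36.1 CPM and Ier2 6.25, 132, 52 and 33.3 CPM, so vehicle replicate 1 was also low. The batch C vehicle library of the same animal number, 12, was higher by 2.19 and 3.85 in log2 of CPM plus 1. For animal number 18 the shifts were 0.422 and 0.475. Whether such differences between libraries contribute to these falls was not tested.

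Outputs of the MEK and ERK kinases followed with a median of -0.44, 5 of 18 members below and none above without overlap (7.34% and 4.57% of all genes). Etv5, an ETS factor that ERK signalling induces, had 9.31, 10.5, 7.88 and 16 CPM at day 7, against 36.9, 33.9 and 22.5 CPM at day 3, with a log2 difference of -1.51 ± 0.33 and an adjusted p of 0.0866 in edgeR's test. Etv4, its relative, had 0.837, 1.2, 1.3 and 0.887 CPM at day 7, against 3.04, 3.38 and 5.14 CPM at day 3, and Spry4, a feedback inhibitor, had 4.81, 4.16, 3.62 and 5.27 CPM at day 7, against 10.4, 11.4 and 9.18 CPM at day 3. Interferon-stimulated genes had a median of -0.09 over 47 tested members, 2 above and 7 below (4.57% and 7.34%). Those with the smallest p were Cmpk2, a nucleotide kinase, with 10.3, 7.68, 11.8 and 12.3 CPM at day 7, against 42.3, 66.1 and 15.6 CPM at day 3, and Ifit3, an antiviral protein, with 4.97, 6.85, 5.72 and 3.81 CPM at day 7, against 25.4, 18.8 and 35.6 CPM at day 3. Ifi204 and Irf7 had 2.92 to 6.49 and 54.5 to 66.6 CPM at day 7, against 13.6 to 34.6 and 104 to 147 CPM at day 3. None of these genes passed when all 16 libraries were fitted. Whether the macrophage RNA of day 3 contributes to these genes was not tested.

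Among mitochondrial transcripts only mt-Rnr1 passed. Of 14 tested, 5 had all day 7 libraries above all day 3 libraries and none below (4.57% and 7.34% of all genes), 4 had an unadjusted p under 0.05, all higher (1.7%), and the median was 0.61. mt-Rnr2, the large ribosomal RNA next to mt-Rnr1 on the same strand, had 1044, 1681, 1292 and 855 CPM at day 7, against 831, 553 and 501 CPM at day 3, a log2 difference of 0.95 ± 0.35 with an adjusted p of 0.372 in edgeR's test. mt-Nd2 and mt-Nd4, subunits of respiratory complex I, differed by 0.60 ± 0.26 and 0.61 ± 0.29. The summed CPM of the list was 6067 to 10147 at day 7 and 5069 to 6389 at day 3, ranges that overlap. No test was made of mt-Rnr1 against its neighbours.

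The same interval was then tested for a difference between LSK and MEP cells. In MEP cells 1887 of 25274 genes were called between day 7 and day 3 (7.47%), 263 higher (1.04%) and 1624 lower (6.43%). The difference of the change in LSK cells minus that in MEP cells passed for 35 of 28378 genes (0.123%), 34 negative (0.12%) and 1 positive (0.00352%). Some animals gave both kinds of library, which the fit took as independent. mt-Rnr1 rose in MEP cells as well, with 172, 189 and 325 CPM at day 7, against 48.9, 84.2, 54.3 and 26.5 CPM at day 3. The difference between cell types was 0.69 ± 0.45, with an adjusted p of 0.6 in edgeR's test. S100a8 had 8.92, 12.9 and 17 CPM at day 7 and 0.391, 1.95, 3.53 and 0.974 CPM at day 3 in MEP cells, a log2 rise of 2.91 ± 0.58 that passed (adjusted p 0.000957, edgeR).

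The erythroid list had a median log2 difference of -0.62 in MEP cells and -0.90 in LSK cells. In MEP cells Epor had 122, 26.1 and 102 CPM at day 7, against 452, 357, 405 and 297 CPM at day 3. Klf1 had 21.1, 16 and 22.3 CPM at day 7, against 139, 734, 354 and 607 CPM at day 3. Both fell there, by log2 changes of -2.18 ± 0.35 and -4.53 ± 0.60, and the differences between cell types were -0.44 ± 0.57 and 0.27 ± 1.10, neither of which passed. Aqp1, Gata1 and Blvrb did not pass in MEP cells, with log2 differences of -0.23 ± 0.27, -0.33 ± 0.25 and -0.65 ± 0.29. Nor did they pass in LSK cells when all 16 libraries were fitted. Their differences between cell types were -1.32 ± 0.46, -0.34 ± 0.39 and -1.24 ± 0.53, and none passed (adjusted p 0.321 to 0.776, edgeR). Cyth3, Epdr1, Crip2 and Etv5 also fell in MEP cells, with log2 changes of -2.66 ± 0.32, -2.54 ± 0.34, -1.74 ± 0.31 and -1.99 ± 0.51. Among genes that were higher, Cd74 rose in MEP cells (4.24 ± 0.58), with 12.4, 15.7 and 28.7 CPM at day 7, against 1.25, 0.938, 1.53 and 0.262 CPM at day 3. Day 7 replicate 4 of the LSK cells came from animal 7, whose MEP library was replicate 3 and had 22.3 CPM of Klf1 and 1.64 CPM of Junb, close to its group.

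Of 27 macrophage members 5 passed this test, all on the negative side (0.12% of all genes). Fabp4, a fatty acid carrier, Cd5l, C1qb and C1qa had differences of -6.43 ± 1.21, -6.00 ± 1.28, -5.33 ± 1.12 and -5.06 ± 1.07, and their adjusted p in the edgeR test was 0.0143, 0.0416, 0.0389 and 0.0397. C1qb had 2.95, 3.55 and 4.17 CPM at day 7 and 1.56, 3.6, 1.2 and 1.87 CPM at day 3 in MEP cells. In LSK cells at day 3 Fabp4 had 5.08, 6.23 and 130.0 CPM, so it was high in replicate 3 alone. Without LSK day 3 replicate 3 the count of all genes was 8 in place of 35. The differences of Fabp4, Cd5l, C1qb and C1qa were then -3.58, -5.34, -4.69 and -4.32 and no longer passed, while Plek and Ctla2a still did. Plek and Ctla2a had differences of -5.00 ± 0.76 and -4.97 ± 0.64, and their adjusted p in the edgeR test was 0.00267 and 0.000185. Both rose in MEP cells, Plek with 20.3, 50.4 and 78.8 CPM at day 7 against 1.02, 2.23, 1.75 and 0.862 CPM at day 3 and Ctla2a with 26.1, 35.8 and 33.6 CPM at day 7 against 1.96, 0.899, 1.86 and 1.24 CPM at day 3. In LSK cells Plek had 159.8 to 275 CPM at day 7 and 200.2 to 219 at day 3. Of 40 megakaryocyte and platelet genes 5 passed, all on the negative side (0.12% of all genes), with a median change of 0.99 in MEP cells and -0.13 in LSK cells. The 1 positive difference was BC067068, named after its values were seen, at 3.11 ± 0.61 with an adjusted p of 0.0205 in edgeR's test.

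**Figure D5:**
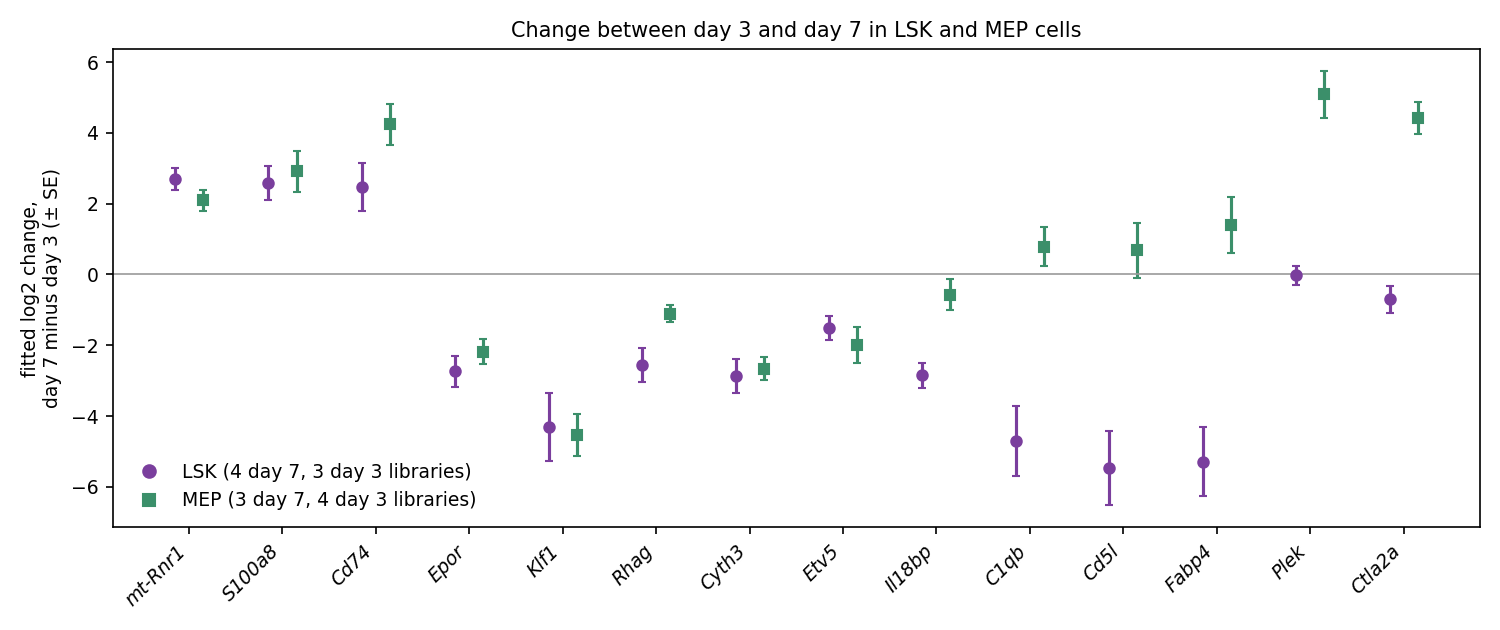
Fitted log2 change of day 7 minus day 3 with its SE for 14 genes in LSK cells (circles, 4 day 7 and 3 day 3 libraries) and MEP cells (squares, 3 day 7 and 4 day 3 libraries). mt-Rnr1, S100a8 and Cd74 lie above 0 and Epor, Klf1, Rhag, Cyth3 and Etv5 below 0 in both. C1qb, Cd5l and Fabp4 lie below 0 in LSK cells. In MEP cells they had means of only 0.416 to 3.56 CPM, and their changes, though above 0, did not pass (adjusted p 0.39 to 0.68, edgeR). Plek and Ctla2a lie far above 0 in MEP cells and at or below 0 in LSK cells.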

How the data were processed

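Paired-end RNA sequencing libraries were made from total RNA of sorted cells, per the labels' protocols with the Takara HT-Seq kit. The authors deposited 1 table of raw counts (33924 gene symbols, 32 libraries), for which the submitters' processing notes name STAR, featureCounts and mm10. Neither versions nor annotation nor strand setting are stated, so reads of overlapping genes, antisense genes and near-identical copies can be swapped.

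The change between day 7 and day 3 was tested with edgeR 4.0.16 in R 4.3.3 (quasi-likelihood F test, two-sided, TMM factors, genes kept by filterByExpr with minimum count 10, Benjamini-Hochberg over all genes tested, threshold 0.05), in a fit of the 16 LSK libraries (the 7, vehicle of batches A and C and ruxolitinib) with a mean per group. That fit took as independent the vehicle libraries of batches A and C that share animal numbers 12 and 18. Number 18 recurs at day 7. The difference from MEP cells was tested in a fit of all 32 libraries. CPM values are TMM-normalised, and errors of log2 changes are SE. The tests were checked on simulated data, in which the spread was capped and no library was made to stand apart. That check does not cover the libraries that stood apart here. The alternatives tried comprised DESeq2 1.42.0, RLE factors, all counted genes, expressed genes (mean CPM of at least 10) alone, fewer libraries, the replicate number as a block, limma 3.58.1 voom with the animal as a random block, and each tamoxifen library left out. The offset for GC content and leaving out vehicle replicate 3 were chosen after seeing the data.

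The members and lists were chosen with earlier results of these data known. Named were Jak2, then the called genes and, where fewer than 12 were called in a direction, up to 6 genes with the smallest p, an average logCPM of at least 2 and groups that do not overlap. Of 38 lists that were computed, 15 are described. From each list described up to 4 genes with the smallest p were added, then 10 STAT5 targets, and for the difference from MEP cells up to 6 called genes in each direction. The other genes named were chosen after their values were seen, and some genes that the rule names are not reported here. Counts of replicates of a group differed by more than sampling noise (chi-square per degree of freedom 19.8 to 71.6). Positions of genes come from GENCODE M21 (mm10), and windows before start sites are from RefSeq, GRCm38.p6, with 61 of 94 genes matched.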

Additional observations from a re-analysis of the deposited data

Results flagged for a closer look

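Among the 4 day 7 libraries, 104 sets of values (named genes and summed lists) were checked for a library far from the other 3, and 14 had one. The cutoff flags about 1 in 20 independent, normally distributed sets. These sets share libraries and many were chosen by their values, so the count of 14 cannot be compared with chance. In 8 of the 14 it was replicate 4, and in each of those 8 it was the highest. These were Epdr1 (29.6 CPM, the others at most 8.28), Apoe (126 CPM, the others at most 11.9), Cd47 (221 CPM, the others at most 123), F2r (185 CPM, the others at most 45.2), Ccnd3 (106 CPM, the others at most 25.4), Junb (32.4 CPM, the others at most 1.94), Ier2 (48.7 CPM, the others at most 4.24) and Klf1 (23.7 CPM, the others at most 2.41). In F2r, Ccnd3 and Cd47 that library lay within the range of day 3, and in Epdr1, Apoe, Junb, Ier2 and Klf1 between the days. Vehicle replicate 1 was the lowest vehicle library of batch A in each of these genes except F2r. Replicate 3 was highest in H2-Eb1 (187 CPM, the others at most 119), Fos (66.9 CPM, the others at most 42.8) and Pim1 (7.18 CPM, the others at most 5.78). Replicate 1 was highest in C1qb (47.1 CPM, the others at most 17.2), Vcam1 (132 CPM, the others at most 54.6) and the macrophage list, whose summed CPM was 2273 there and at most 1472 in the other day 7 libraries.

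The change between day 7 and day 3 differed between LSK and MEP cells, by the test of the difference itself in edgeR, in 8 genes flagged here. Pf4 and BC067068, also named, passed too, at -3.92 and 3.11 (adjusted p 0.0205 for both, edgeR). For the 8 genes the differences on the log2 scale, LSK minus MEP, were -6.43 for Fabp4, -6.00 for Cd5l, -5.33 for C1qb, -5.06 for C1qa, -5.00 for Plek, -4.97 for Ctla2a, -4.71 for Lgmn and -3.47 for Ctss, with adjusted p of 0.000185 to 0.0416. Without LSK day 3 replicate 3, Fabp4, Cd5l, C1qb and C1qa no longer passed (adjusted p 0.28 to 0.521, edgeR). Of the 8, Plek and Ctla2a rose in MEP cells, and the other 6 genes did not pass in MEP cells.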

How the results depend on the processing

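The number of genes called between day 7 and day 3 in LSK cells was 2 in the fit of 16 libraries and stayed 2 with RLE factors and with the 11 libraries of batch A. It was 308 (43 higher, 265 lower) with DESeq2, 16 (2 higher, 14 lower) with no count filter, 252 (30 higher, 222 lower) among expressed genes alone and 289 (35 higher, 254 lower) with the 7 tamoxifen libraries. After seeing the data, leaving out vehicle replicate 3 gave 109 (5 higher, 104 lower) and the GC offset within expressed genes 558 (289 higher, 269 lower), where expressed genes without it gave 252. Leaving out each of the 7 tamoxifen libraries in turn gave 1 to 797 genes, 1 to 20 of them higher and 0 to 777 lower, the largest without day 7 replicate 4. The replicate numbers mark different animals, so same-numbered libraries of the days share only a number. Their deviations from their own group means correlated at 0.013, -0.115 and -0.0884. With the replicate block 1638 (136 higher, 1502 lower) genes were called. The difference between LSK and MEP cells was called for 35 genes. The counts were 57 (2 higher, 55 lower) with RLE factors, 266 (68 higher, 198 lower) with DESeq2 and 173 (27 higher, 146 lower) among expressed genes. They were 192 (8 higher, 184 lower) with the 14 tamoxifen libraries, 260 (19 higher, 241 lower) with the replicate block and 92 (2 higher, 90 lower) with the animal as a random block. Leaving out each of the 14 tamoxifen libraries in turn gave 8 to 82 (0 to 38 higher, 8 to 44 lower). The causes were not tested. Among named genes the sign turned only in 5 that did not pass and lay near 0, in log2 Jak2 at 0.0116 and 0.0122 and at -0.123 to 0.0107 with libraries left out, Myc at 0.0525, 0.0525, 0.0266, 0.00264, 0.043 and 0.252 and at -0.175 to 0.193 with libraries left out, Podxl at 0.045, 0.049, 0.0251, 0.0251 and 0.0198 and at -0.31 to 0.192 with libraries left out, Bcl2l1 at -0.124 and -0.013 and at -0.0952 to 0.238 with libraries left out, Id1 at -0.207 to 0.57 with libraries left out. At the depth of these libraries genes of a few CPM are measured least precisely, and 3 and 4 libraries limit every count of calls.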
